A study of Mus musculus with 18 samples.

Results

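Transcripts of 10 genes of the piRNA pathway, Ddx4, Mael, Tdrd1, Tdrd9, Piwil2, Asz1, Mov10l1, Gpat2, Tdrkh and Pld6, were followed in the cells of whole mouse embryos. The genes were chosen by name, all 10 were among the 31053 mouse genes of the count matrices, and all 10 passed the filter on low counts in whole-embryo sums. The data are droplet single-cell RNA-seq in 18 libraries, each labelled as 1 dissociated embryo of the strain 129S4/SvJae at embryonic day 8.5, extraembryonic tissue included. Offspring of heterozygous parents gave 7 wild-type libraries (WT), 3 of homozygous Dnmt1 null embryos (Dnmt1 KO), 4 of homozygous Dnmt3a embryos (Dnmt3a KO) and 4 labelled as homozygous for Dnmt3b (Dnmt3b KO), of which 2 share most of their barcodes and were counted as 1 sample. Each mutation was constitutive, so it was present in every tissue, and the genotypes came from a polymerase chain reaction on the ectoplacental cone. The litters of the embryos were not given in the sources used here.

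piRNAs are small RNAs of the germ line that guide PIWI proteins to the transcripts and genes of transposons. Their precursors are cut and trimmed on the outer surface of mitochondria and in nuage, a granular material of germ cells, by a set of helicases, nucleases and Tudor-domain scaffolds. Most of these genes are off in somatic cells, where several of their promoters are CpG-rich and carry DNA methylation. DNMT3A and DNMT3B place that methylation after implantation, and DNMT1 copies it at each cell division. The comparisons ask how far each of these genes was transcribed in embryos with one of the 3 enzymes mutated.

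The promoter windows are shown first because CpG is the substrate of the mutated enzymes and because the genes below differ in whether they moved. RefSeq windows of GRCm38.p6, from 250 bases before to 50 after a start, matched 9 of the 10 genes, and Piwil2 had none. The Piwil2 gene itself spans chr14:70372477-70429383 on the minus strand in the GENCODE annotation of GRCm38. The 5 windows of genes that rose in Dnmt1 KO and Dnmt3b KO embryos came from the minus strand of chr13:112652261-112652560 (Ddx4), the minus strand of chr1:166238695-166238994 (Mael), the plus strand of chr15:88982744-88983043 (Mov10l1), the minus strand of chr6:18109012-18109311 (Asz1) and the plus strand of chr2:127424949-127425248 (Gpat2). For contrast, the windows of a pair of genes that did not pass the test came from the plus strand of chr12:111971309-111971608 (Tdrd9) and chr3:94412994-94413293 (Tdrkh). Capitals mark the E-box CACGTG, which reads the same on both strands, and GCGGGAA on either strand, an E2F-type motif. The letters are the reference's, not those of these embryos.
Ddx4: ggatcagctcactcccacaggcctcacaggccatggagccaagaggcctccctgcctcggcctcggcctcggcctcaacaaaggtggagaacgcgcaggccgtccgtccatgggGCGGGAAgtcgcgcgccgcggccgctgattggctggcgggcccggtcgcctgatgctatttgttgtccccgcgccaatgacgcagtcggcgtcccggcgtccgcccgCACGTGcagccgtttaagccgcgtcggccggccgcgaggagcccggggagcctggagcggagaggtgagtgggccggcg
Mael: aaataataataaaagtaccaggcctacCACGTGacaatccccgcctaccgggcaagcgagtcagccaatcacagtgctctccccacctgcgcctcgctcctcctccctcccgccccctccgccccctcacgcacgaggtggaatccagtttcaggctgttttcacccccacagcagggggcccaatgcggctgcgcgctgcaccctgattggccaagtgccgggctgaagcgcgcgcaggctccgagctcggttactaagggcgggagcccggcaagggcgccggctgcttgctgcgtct
Mov10l1: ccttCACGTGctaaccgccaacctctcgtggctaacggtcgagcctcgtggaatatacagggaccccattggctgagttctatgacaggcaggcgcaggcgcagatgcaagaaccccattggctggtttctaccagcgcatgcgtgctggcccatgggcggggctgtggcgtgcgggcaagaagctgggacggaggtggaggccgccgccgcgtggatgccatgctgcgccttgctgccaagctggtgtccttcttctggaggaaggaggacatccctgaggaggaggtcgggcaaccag
Asz1: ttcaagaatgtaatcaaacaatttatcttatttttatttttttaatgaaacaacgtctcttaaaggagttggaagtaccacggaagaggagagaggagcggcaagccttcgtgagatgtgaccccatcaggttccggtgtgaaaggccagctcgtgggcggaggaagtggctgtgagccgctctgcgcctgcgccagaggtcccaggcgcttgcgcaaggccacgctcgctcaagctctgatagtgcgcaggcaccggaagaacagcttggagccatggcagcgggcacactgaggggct
Gpat2: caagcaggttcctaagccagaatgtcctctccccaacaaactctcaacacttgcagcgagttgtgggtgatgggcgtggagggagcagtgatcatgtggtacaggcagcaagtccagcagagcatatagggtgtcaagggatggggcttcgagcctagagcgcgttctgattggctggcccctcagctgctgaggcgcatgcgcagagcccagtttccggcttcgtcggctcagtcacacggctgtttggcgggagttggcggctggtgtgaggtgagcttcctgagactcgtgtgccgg
Tdrd9: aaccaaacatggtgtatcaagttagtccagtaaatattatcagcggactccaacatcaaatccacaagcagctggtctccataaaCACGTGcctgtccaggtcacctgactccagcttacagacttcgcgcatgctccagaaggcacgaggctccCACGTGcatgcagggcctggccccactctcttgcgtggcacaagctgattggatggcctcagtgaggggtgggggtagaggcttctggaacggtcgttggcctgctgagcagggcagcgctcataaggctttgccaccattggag
Tdrkh: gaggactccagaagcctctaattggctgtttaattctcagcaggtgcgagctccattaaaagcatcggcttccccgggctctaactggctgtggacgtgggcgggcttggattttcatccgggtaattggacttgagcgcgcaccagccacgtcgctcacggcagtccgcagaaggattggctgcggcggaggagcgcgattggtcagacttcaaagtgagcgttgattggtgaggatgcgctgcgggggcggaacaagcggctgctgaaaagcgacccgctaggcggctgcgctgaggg

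These windows held 38 CpGs in Ddx4, 24 in Mael, 20 in Mov10l1, 17 in Asz1, 15 in Gpat2, 10 in Tdrd9 and 25 in Tdrkh, against a median of 7 (quartiles 3 and 20) over all 32851 RefSeq windows of that length. CpG number did not separate the genes that passed the tests below from those that did not: Tdrkh held 25 and the 2 windows of Pld6 held 25 and 18. CACGTG was present in 7 of the 12 windows of the 9 genes (58.3%) and in 6 of the 9 genes, against 7.15% of all windows. It occurred once each in Ddx4, Mael and Mov10l1, in 2 of the 3 windows of Tdrd1, which overlap and hold the same copy, and in 1 of the 2 windows of Pld6, and there were 2 copies in Tdrd9. GCGGGAA was found in the Ddx4 window alone, against 4.60% of all windows, and no match says only that these letters are absent from the 300 bases searched.

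The libraries held 128881 cell barcodes with at least 1500 mouse unique molecular identifiers (UMIs, each standing for 1 captured transcript), between 38742721 and 262580123 UMIs per library and between 4052 and 56928 in the median barcode. Dnmt1 transcript was lowered in the Dnmt1 KO libraries, at 14.9, 15.6 and 15.0 CPM (UMIs of a gene per 1000000 UMIs of the library) against 83.7 to 114 in WT. Dnmt3a was lowered in the Dnmt3a KO libraries, at 8.70, 9.73, 7.59 and 11.8 CPM against 23.5 to 34.5 in WT. Dnmt3b transcript did not check the Dnmt3b labels, since it stood at 54.4, 61.0, 63.3 and 68.3 CPM in those libraries and at 35.9 to 87.1 in WT, and where the deletion lies relative to the 3' tag was not given in the sources used here. Libraries 11 and 12 of the Dnmt3b KO label also had 15.1 and 7.65 CPM of Dnmt3a, below every WT library, and Dnmt3b KO 12 stood apart for most genes described below. Libraries 1 and 2 of the Dnmt3b KO label shared 9149 barcodes, 80.4% and 83.1% of their own, while no other pair of libraries shared more than 43. Of the shared barcodes that were classed in both, 96.0% fell in the same cell class. Whether they are 1 embryo is not given in the sources used here, and they were summed and counted as 1 sample, so that Dnmt3b KO has n = 3 and the tests below have 17 samples unless a library is left out. Their shared barcodes are counted in both libraries wherever numbers of barcodes or cells are given. Summed transcripts of Y-linked genes were high in 1 of 7 WT libraries (WT 2), in all 7 Dnmt1 KO and Dnmt3a KO libraries and in 3 of 4 labelled Dnmt3b KO, so sex and genotype are nearly confounded.

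Of the 10 genes, 6 rose in Dnmt1 KO embryos, 1 in Dnmt3a KO embryos and 6 in Dnmt3b KO embryos, and none fell. The calls used edgeR's quasi-likelihood test on UMIs summed per embryo, with a Benjamini-Hochberg adjusted p under 0.01 over 18870 genes and an absolute log2 change no smaller than 1, and the percentages of all tested genes that these rules called in either direction were 14.3% for Dnmt1 KO, 0.207% for Dnmt3a KO and 1.86% for Dnmt3b KO. The median log2 fold change of the 10 genes was 3.73, 1.21 and 3.04 in that order, against 0.01, 0.00 and -0.01 over all tested genes. The 6 genes called in Dnmt1 KO were also the 6 called in Dnmt3b KO: Ddx4, Mael, Piwil2, Asz1, Mov10l1 and Gpat2. Both comparisons share the WT embryos, so their calls are not independent. The filter on low counts reads all groups together and can keep a gene for its counts in mutant embryos alone. The counts of calls therefore describe these genes and support nothing. Added over the 10 genes, the level was 8.39 to 11.02 CPM in WT, 65.6, 61.2 and 56.9 in Dnmt1 KO, 12.1, 19.15, 16.8 and 21.8 in Dnmt3a KO, and 30.2, 34.0 and 91.4 in the samples labelled Dnmt3b KO 1 and 2, 11 and 12.

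**Figure D1:**
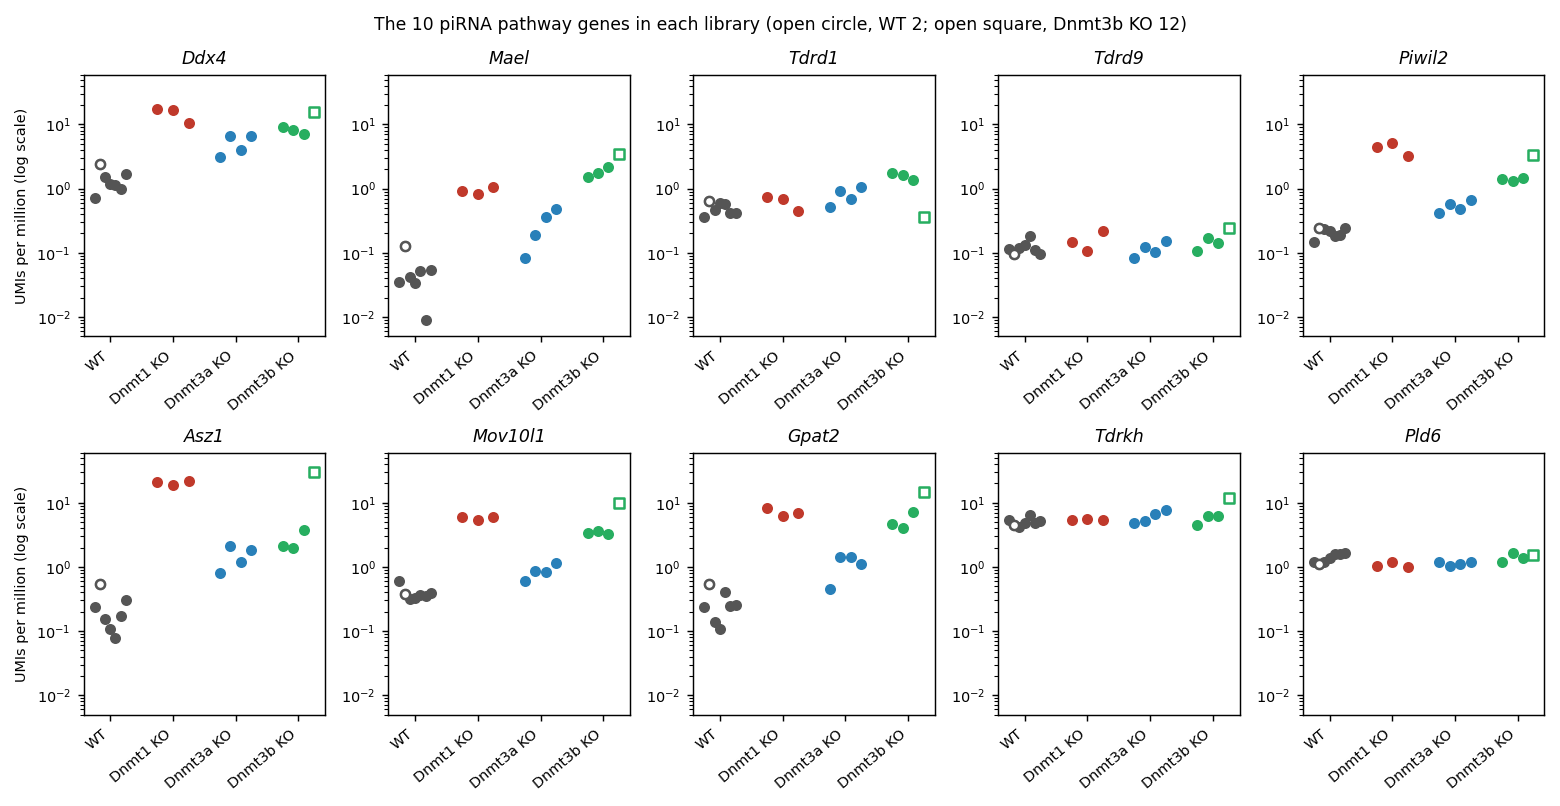
Level of each of the 10 genes in each library, in CPM on a log axis, with 1 point per library and the WT 2 and Dnmt3b KO 12 libraries drawn as open symbols. Ddx4, Mael, Piwil2, Asz1, Mov10l1 and Gpat2 lie above every WT library in all Dnmt1 KO and Dnmt3b KO samples, while Tdrd9, Tdrkh and Pld6 overlap between the groups.

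Piwil2 encodes MILI, the PIWI protein that binds piRNAs in fetal male germ cells. Its level was 0.146 to 0.248 CPM in WT (median 0.220), 4.41, 5.19 and 3.18 in Dnmt1 KO, 0.424, 0.571, 0.481 and 0.672 in Dnmt3a KO, and 1.35, 1.45 and 3.30 in the samples labelled Dnmt3b KO 1 and 2, 11 and 12. Every mutant library was above every WT library. Piwil2 rose by a log2 fold change of 4.42 ± 0.24 (SE) in Dnmt1 KO (adjusted p = 1.66e-09) and of 3.22 ± 0.24 in Dnmt3b KO (adjusted p = 3.30e-07). In Dnmt3a KO it was at 1.32 ± 0.23, which did not pass (adjusted p = 0.0107).

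Ddx4 encodes VASA, the RNA helicase long used as a marker of germ cells, and Mov10l1 encodes the helicase that binds piRNA precursors and feeds them to processing. WT Ddx4 ran from 0.707 to 2.44 CPM (median 1.19), with WT 2, the 1 WT library with high Y-linked transcripts, the highest. WT 2 was also the highest WT library for Piwil2, Asz1, Gpat2, Mael and Tdrd1, but not for Mov10l1, Tdrd9, Tdrkh or Pld6. Ddx4 was at 17.7, 16.9 and 10.7 in Dnmt1 KO, at 3.15, 6.64, 3.94 and 6.50 in Dnmt3a KO, and at 8.63, 7.09 and 15.4 in Dnmt3b KO. No mutant library overlapped WT, and Ddx4 was the 1 gene of the 10 called in all 3 mutants, with log2 fold changes of 3.52 ± 0.31 (adjusted p = 2.77e-07), 1.83 ± 0.29 (adjusted p = 0.00474) and 2.85 ± 0.31 (adjusted p = 1.32e-05). The Dnmt3a KO call was lost when any 1 of WT 3, 4, 5 or 6 or of Dnmt3a KO 2, 13 or 14 was left out, with adjusted p between 0.0106 and 0.0291, with a Y-linked covariate, and with the extraembryonic classes left out. Mov10l1 was at 0.321 to 0.597 CPM in WT (median 0.361), 5.90, 5.31 and 5.97 in Dnmt1 KO, and 3.48, 3.31 and 9.96 in Dnmt3b KO. These groups did not overlap and Mov10l1 rose by 3.94 ± 0.28 (adjusted p = 2.50e-08) and 3.77 ± 0.28 (adjusted p = 3.30e-07). The Dnmt3a KO libraries were at 0.594, 0.879, 0.834 and 1.17, so that the lowest of them fell just under the highest WT library (log2 fold change 1.11 ± 0.27, adjusted p = 0.0846).

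Asz1 and Gpat2 act at the mitochondrial surface. ASZ1, also called GASZ, is an ankyrin-repeat scaffold of nuage, and GPAT2 is a mitochondrial acyltransferase family member that is needed for primary piRNAs. Asz1 had the highest fold change of the 10 genes in Dnmt1 KO, from a mean of 0.226 ± 0.156 CPM (SD, n = 7) in WT to 20.6 ± 1.34 (n = 3), with libraries at 20.8, 19.2 and 21.9 (log2 fold change 6.51 ± 0.63, adjusted p = 7.81e-07). In Dnmt3b KO it was at 2.05, 3.80 and 30.5 CPM, an uneven group whose highest sample is the library labelled Dnmt3b KO 12. The rise of 5.59 ± 0.62 (adjusted p = 1.65e-05) became 3.63 ± 0.42 (adjusted p = 3.97e-05) without that library. The Dnmt3a KO libraries were at 0.795, 2.11, 1.17 and 1.85, all above the WT range of 0.0774 to 0.535, at a log2 fold change of 2.59 ± 0.58 that did not pass (adjusted p = 0.0515).

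Gpat2 was at 0.107 to 0.535 CPM in WT (median 0.243) and at 8.43, 6.25 and 6.97 in Dnmt1 KO (4.84 ± 0.43, adjusted p = 2.77e-07). In the samples labelled Dnmt3b KO 1 and 2, 11 and 12 it was at 4.40, 7.13 and 14.8 (5.00 ± 0.43, adjusted p = 9.93e-07). Both groups were clear of WT, and the order of their own 6 samples was mixed. In Dnmt3a KO the levels of 0.454, 1.42, 1.42 and 1.11 overlapped WT through the library Dnmt3a KO 1 (2.03 ± 0.40, adjusted p = 0.0228).

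Mael encodes Maelstrom, a nuage protein needed for transposon silencing in the male germ line. WT libraries held 2 to 23 UMIs of it, or 0.00884 to 0.129 CPM, and WT 2 was the highest. Its levels were 0.929, 0.822 and 1.04 CPM in Dnmt1 KO and 1.64, 2.16 and 3.50 in Dnmt3b KO. Here the Dnmt3b KO samples were all above the Dnmt1 KO libraries, with rises over WT of 5.55 ± 0.49 (adjusted p = 1.29e-06) and 4.29 ± 0.49 (adjusted p = 4.38e-06). The 4 Dnmt3a KO libraries spread from 0.0830 to 0.479 CPM and overlapped WT (2.43 ± 0.48, adjusted p = 0.0219).

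The other 4 genes did not pass in any of the 3 comparisons with WT. TDRD1 is a Tudor scaffold that binds MILI, TDRD9 a Tudor protein with a helicase domain, TDRKH a mitochondrial Tudor protein of the trimming step, and PLD6 the mitochondrial nuclease that cuts piRNA precursors. Tdrd1 was at 0.356 to 0.647 CPM in WT (median 0.465), 0.734, 0.700 and 0.453 in Dnmt1 KO, and 1.68, 1.37 and 0.360 in Dnmt3b KO. The low sample in the last group was again Dnmt3b KO 12: Tdrd1 was at 1.19 ± 0.33 (adjusted p = 0.0522) with that library and passed without it, at 1.64 ± 0.24 (adjusted p = 0.000591). Tdrkh was at 4.20 to 6.45 CPM in WT, and its Dnmt1 KO libraries lay within that range at 5.45, 5.48 and 5.47. In Dnmt3b KO it was at 5.35, 6.15 and 11.7 (0.58 ± 0.19, adjusted p = 0.104). Pld6 stayed between 1.01 and 1.67 CPM in all samples and Tdrd9 between 0.0830 and 0.242. Oaz3 and Rd3l overlap Tdrkh and Tdrd9 on the opposite strand and are themselves in the matrices.

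**Figure D2:**
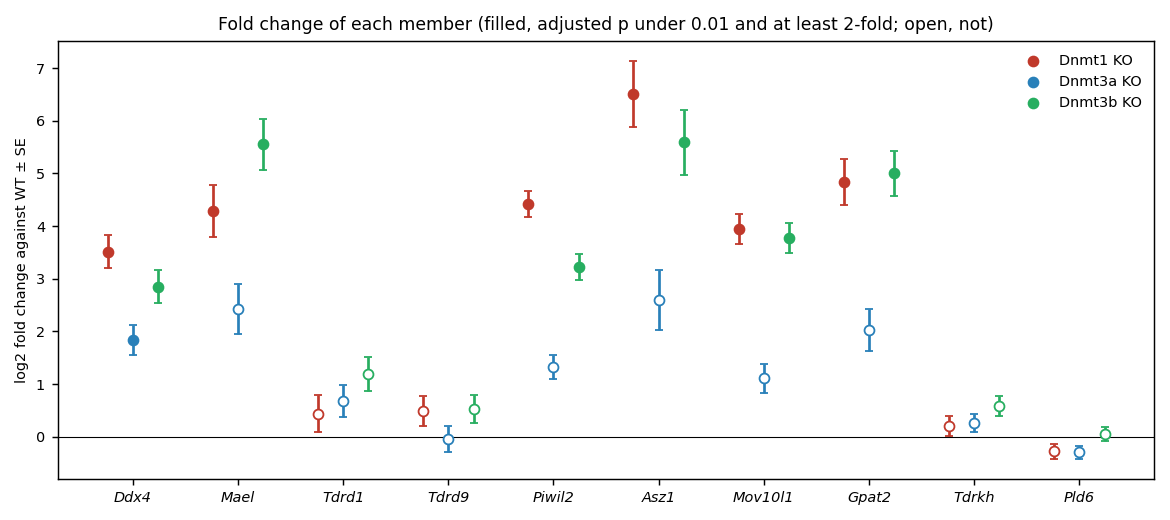
Log2 fold change of each of the 10 genes in the 3 mutants (Dnmt1 KO, Dnmt3a KO, Dnmt3b KO) over WT, with bars of 1 SE and filled points for genes that passed the test. The same 6 genes are filled for Dnmt1 KO and Dnmt3b KO, and Ddx4 at 1.83 is the 1 filled point for Dnmt3a KO.

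The library labelled Dnmt3b KO 12 bore on all 3 comparisons, since one estimate of spread was shared. Without it, 6, 5 and 7 of the 10 genes passed in Dnmt1 KO, Dnmt3a KO and Dnmt3b KO, where 14.8%, 0.454% and 1% of all tested genes did. The 4 genes that Dnmt3a KO gained were Piwil2 (1.35 ± 0.18, adjusted p = 0.000500), Asz1 (2.62 ± 0.37, adjusted p = 0.000981), Mov10l1 (1.13 ± 0.19, adjusted p = 0.00528) and Gpat2 (2.06 ± 0.37, adjusted p = 0.00753). Their fold changes hardly moved, and their standard errors became smaller. In Dnmt3b KO the fold changes became 2.50 for Ddx4, 5.25 for Mael, 2.74 for Piwil2, 3.105 for Mov10l1 and 4.46 for Gpat2, all still called. The samples left there were Dnmt3b KO 1 and 2, summed, and Dnmt3b KO 11. Dnmt3b KO 11 also had low Dnmt3a, at 15.1 CPM against 23.5 to 34.5 in WT, while libraries 1 and 2 together had 32.5. With a covariate for Y-linked transcripts the counts were 6, 0 and 6, beside 10.9%, 0.35% and 2.62% of all tested genes. Dnmt3b KO 12 had 7.65 CPM of Dnmt3a, within the 7.59 to 11.8 of the Dnmt3a KO libraries. No transcript checked the Dnmt3b labels, so each Dnmt3b KO value rests on them.

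The mutants were also set against each other. Between Dnmt1 KO and Dnmt3b KO, 1 of the 10 genes differed, where 8.84% of all tested genes did: Piwil2 was higher in Dnmt1 KO by 1.20 ± 0.29 (adjusted p = 0.00596). A count of 1 in 10 is near that share, so it says nothing particular of these genes. The Piwil2 call was lost without Dnmt1 KO 1 (adjusted p = 0.0169), Dnmt1 KO 2 (0.0334) or Dnmt3b KO 11 (0.0335). With the extraembryonic classes left out 0 of the 10 genes passed with edgeR and 3 had an unadjusted p under 0.05. The share of all tested genes called in that setting is not given here, so this count says little. Without Dnmt3b KO 12, where 8.79% of all tested genes passed, Asz1 and Tdrd1 passed as well, Asz1 higher in Dnmt1 KO by 2.86 and Tdrd1 lower, at -1.20. Between Dnmt1 KO and Dnmt3a KO, 6 of the 10 genes differed (13.4% of all tested genes), all higher in Dnmt1 KO, from 1.68 ± 0.36 for Ddx4 to 3.91 ± 0.70 for Asz1, both past the threshold (adjusted p = 0.00167 and 0.000432). Mael was the unstable call among the 6: it was lost when any 1 of WT 1, 3, 4, 5 or 7, of the 3 Dnmt1 KO libraries, of Dnmt3a KO 1, 2 or 13 or of Dnmt3b KO 2 or 11 was left out, with adjusted p between 0.0105 and 0.0249. Between Dnmt3b KO and Dnmt3a KO, 4 of the 10 were higher in Dnmt3b KO (0.217% of all tested genes), namely Mael by 3.12, Gpat2 by 2.97, Mov10l1 by 2.66 and Piwil2 by 1.90. Asz1 differed by 2.999 ± 0.68 between them and did not pass (adjusted p = 0.0586). Of the 4, only Mov10l1 passed with each library left out in turn. Mael was lost without any 1 of WT 3, Dnmt1 KO 1, the 4 Dnmt3a KO libraries or Dnmt3b KO 11 or 12 (adjusted p between 0.0107 and 0.0341). Gpat2 was lost without any 1 of the 4 Dnmt3a KO libraries or Dnmt3b KO 12 (0.0137 to 0.0401), and Piwil2 without Dnmt3a KO 1 or 13 or Dnmt3b KO 12 (0.0107 to 0.0165). Without Dnmt3b KO 12, 0.108% of all tested genes passed. Dnmt3b KO 11, which stayed in that fit, also had Dnmt3a below every WT library.

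Sums over an embryo cannot tell fewer cells of a type from less RNA per cell, so the genes were followed within cell classes. Cells were clustered without the 10 genes. Filters and a doublet caller left out 18919 barcodes, 20073 fell in clusters that stayed unnamed, and 89889 were put in 18 classes named from marker genes, each written as a likeness.

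The make-up of the libraries moved with genotype. Dnmt1 KO libraries held 0 to 3 Neuroectoderm-like, 0 Neural crest-like and 0 to 5 NMP-like (neuromesodermal progenitor) cells, against 240 to 885, 35 to 193 and 147 to 630 in WT. Epiblast-like cells made up 9.27 to 16.8% of the clustered cells of Dnmt1 KO libraries and at most 0.233% of WT. ExE ectoderm-like cells made up 5.60, 31.0 and 4.47% of Dnmt1 KO 1, 2 and 3 and at most 1.65% of WT. ExE endoderm-like cells, the class with the highest Ddx4, made up 28.2, 25.3 and 9.02% of the same 3 libraries, whose Ddx4 was at 17.7, 16.9 and 10.7 CPM. They made up 9.39 to 19.6% of WT. In Dnmt3a KO 1, 2, 13 and 14 they made up 13.1, 36.2, 7.38 and 13.6%, with Ddx4 at 3.15, 6.64, 3.94 and 6.50 CPM. What part this share had in the level of Ddx4 was not tested in any group. Dnmt3b KO 12 stood apart from the other libraries of its label in make-up too, with 8.30% Megakaryocyte-like cells against 0.372 to 0.633%, 1.64% Erythroid-like against 8.46 to 12.9%, 1.79% Paraxial mesoderm-like against 4.60 to 5.89% and 0.626% Neural crest-like against 1.76 to 2.42%. Unnamed clusters held 51.4% of Dnmt1 KO 3 and 10.1 to 26.6% of the other libraries. Of the Dnmt1 KO cells sampled for clustering, 209 were in unnamed cluster 4, with Pax6, Sox3 and Pou5f1 among its leading genes. Its best scores were for epiblast and for hindbrain and spinal cord. Unnamed clusters 6 and 32, with presomitic mesoderm among their best scores, held 217 and 483. The low Dnmt1 KO counts of named classes do not include such cells. Where extraembryonic classes were left out of the sums, here and elsewhere, these were the ExE ectoderm-like, ExE endoderm-like and Parietal endoderm-like classes. All other barcodes stayed in, those of the ExE mesoderm and allantois-like class and of unnamed clusters included. Of the 10 genes, 6, 2 and 6 were then called in Dnmt1 KO, Dnmt3a KO and Dnmt3b KO. The shares of all tested genes called were 12.2%, 0.332% and 2.29%. The 2 in Dnmt3a KO were then Mael (2.51 ± 0.45, adjusted p = 0.00899) and Piwil2 (1.66 ± 0.28, adjusted p = 0.00550), while Ddx4 was at 1.88 ± 0.38 and did not pass (adjusted p = 0.0187).

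A class was used in an embryo with at least 25 cells of it. Counting each gene in each class as 1 pair, 26 of 36 tested pairs rose in Dnmt1 KO (5 classes), 6 of 92 in Dnmt3a KO and 59 of 92 in Dnmt3b KO (14 classes each). The filter on low counts kept 36 of 50, 92 of 140 and 92 of 140 pairs, and since it can keep a pair for the counts of the mutant embryos alone, these counts describe the pairs and support nothing. None of the tested pairs fell and passed. Over all genes the same rule called 6.98%, 0.145% and 0.709% of the pairs. Without Dnmt3b KO 12 the counts were 28 of 37, 11 of 93 and 58 of 93, beside 7.88%, 0.223% and 0.477% over all genes.

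Some classes were made of different clusters in the groups compared. In Dnmt1 KO and WT, different clusters held the highest share of the ExE endoderm-like class (cluster 13 with 69.3% of its Dnmt1 KO cells, cluster 2 with 50.1% in WT), of the ExE mesoderm and allantois-like class (cluster 20 with 83.2%, cluster 14 with 31.6%) and of the Gut-like class (cluster 33 with 81.9%, cluster 31 with 36.4%). The Endothelium-like and Megakaryocyte-like classes each came from 1 cluster, the same in both groups. The leading clusters of Dnmt3b KO and WT also differed for the Gut-like (25 and 31) and Erythroid-like classes (5 and 0), and those of Dnmt3a KO and WT for the ExE endoderm-like (1 and 2), Gut-like (25 and 31) and Surface ectoderm-like classes (26 and 21).

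The 5 classes of the Dnmt1 KO comparison were Endothelium-like, ExE endoderm-like, ExE mesoderm and allantois-like, Gut-like and Megakaryocyte-like. Asz1, Mov10l1 and Gpat2 passed the filter in all 5, Ddx4 in 4 and Mael and Piwil2 in 3, and each rose in those classes. Of the 14 classes of the Dnmt3b KO comparison, the filter kept 8 for Mael, 7 for Piwil2 and 12 each for Asz1, Ddx4, Gpat2 and Mov10l1. Of the classes kept, Mael rose in 8, Piwil2 in 7, Asz1, Ddx4 and Gpat2 in 11 and Mov10l1 in 10. Over all genes, 6.98% of pairs were called in Dnmt1 KO and 0.709% in Dnmt3b KO. The filter can keep a gene in a class for the counts of the mutant embryos alone, so these counts by gene support nothing. Mael could not be tested in the other 6, Erythroid-like and Megakaryocyte-like cells among them. Tdrd1 rose in 1 of 3 classes in Dnmt1 KO (ExE endoderm-like, 1.35 ± 0.28, adjusted p = 0.00190) and in 1 of 7 in Dnmt3b KO (Paraxial mesoderm-like, 1.89 ± 0.36, adjusted p = 0.00966). Tdrkh, tested in 5 and 14 classes, and Pld6, tested in 3 and 8, passed in no class of either mutant, and Tdrd9 had too few UMIs to be tested in a class.

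Asz1 was near the floor in most WT classes and high in every Dnmt1 KO class. Its Dnmt1 KO class means ran from 12.1 ± 0.341 CPM in Epiblast-like cells (SD, n = 3) to 39.2 ± 1.31 in ExE mesoderm and allantois-like cells, where WT was at 0.537 ± 0.269 (n = 7). Within the Endothelium-like class, led by the same cluster in both groups, Asz1 was at 22.9 ± 4.004 in Dnmt1 KO and 0.0729 ± 0.155 in WT. ExE ectoderm-like cells were an exception in WT: in WT 2, the 1 WT embryo with at least 25 of them, Asz1 was at 8.35 CPM and Piwil2 at 5.01. They also had the highest Piwil2 mean of the Dnmt1 KO classes, at 9.35 CPM. They made up 4.47 to 31.0% of Dnmt1 KO and at most 0.137% of Dnmt3b KO libraries. Their part alone in the higher Piwil2 of Dnmt1 KO over Dnmt3b KO was not tested.

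Ddx4 was highest in ExE endoderm-like cells of every group, at 5.61 ± 2.37 CPM in WT, 18.1 ± 3.67 in Dnmt3a KO, 23.2 ± 9.53 in Dnmt3b KO and 37.7 ± 4.25 in Dnmt1 KO. That class also held 5 of the 6 called pairs of Dnmt3a KO, and it had the most Dnmt3a KO calls over all genes, 96 of 244 (0.698% of the genes tested in it). The 5 were Ddx4 (1.71 ± 0.23, adjusted p = 0.000406), Gpat2 (2.01 ± 0.28, adjusted p = 0.000548), Mov10l1 (1.97 ± 0.37, adjusted p = 0.00599), Piwil2 (1.18 ± 0.22, adjusted p = 0.00607) and Asz1 (2.50 ± 0.50, adjusted p = 0.00845). The other was Ddx4 in Surface ectoderm-like cells, at 2.14 ± 1.05 CPM against 0.514 ± 0.524 in WT (2.64 ± 0.45, adjusted p = 0.00666), a class in which 0.218% of all genes tested were called.

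The classes did not carry the genes in one order. Mov10l1 was already high in WT Cardiomyocyte-like cells, at 14.3 ± 3.59 CPM, and there it was at 21.0 ± 2.82 in Dnmt3a KO and 24.1 ± 4.67 in Dnmt3b KO, which did not pass (0.69 ± 0.18, adjusted p = 0.0881). Outside that class, WT Mov10l1 was near 0 in most, for example at 0.00889 ± 0.0235 in Neuroectoderm-like cells, where Dnmt3b KO reached 5.82 ± 4.13. Tdrkh was highest in Neuroectoderm-like cells of WT, at 12.1 ± 2.35, with 16.7 ± 3.99 in Dnmt3a KO and 18.0 ± 4.75 in Dnmt3b KO.

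Erythroid-like cells, which load haemoglobin, had the lowest Ddx4 mean of the Dnmt3b KO classes, at 0.498 ± 0.454 CPM, and 0.0745 ± 0.0654 of Mael. Gpat2 was at 7.17 ± 4.92 in the same cells, against 0.198 ± 0.175 in WT. Megakaryocyte-like cells likewise had little Mael in Dnmt3b KO, at 0.0621 ± 0.107, while Mesenchyme and pharyngeal mesoderm-like cells had 5.30, the highest class mean of that gene.

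**Figure D3:**
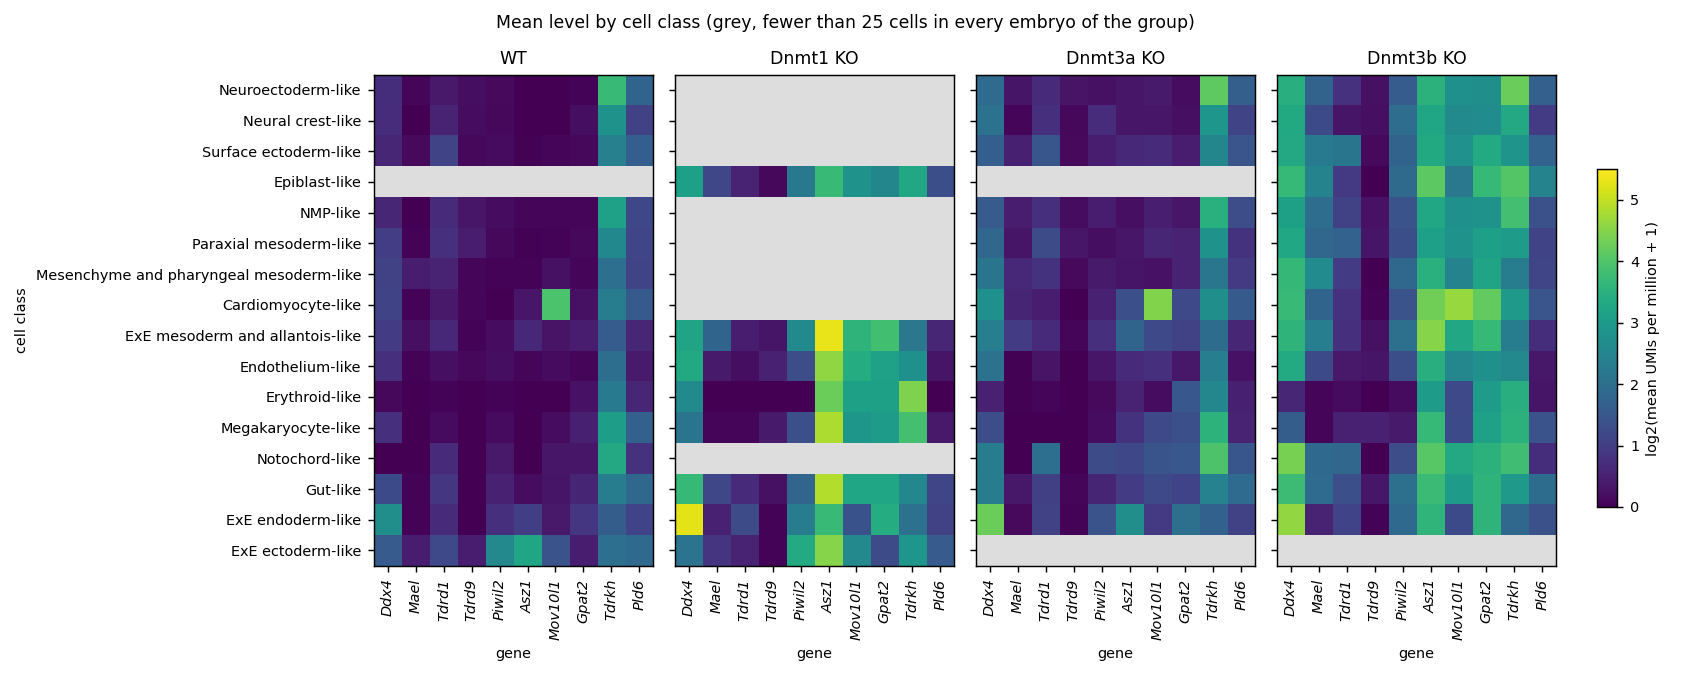
Mean level of each of the 10 genes in each cell class and group, as log2(mean CPM + 1) in colour, with grey where no embryo had 25 cells of the class. Asz1 fills every Dnmt1 KO class (12.1 to 39.2 CPM), Mov10l1 is high in Cardiomyocyte-like cells of WT too (14.3 CPM), and Ddx4 peaks in ExE endoderm-like cells of all 4 groups.

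Single barcodes were compared after each had been thinned to 5000 UMIs, which left out 10710 of 40258 WT, 2848 of 8878 Dnmt1 KO, 13555 of 40190 Dnmt3a KO and 9956 of 39555 Dnmt3b KO barcodes. At that depth 3.92 to 5.77% of WT barcodes carried a UMI of at least 1 of the 10 genes, against 26.4, 27.3 and 23.0% in Dnmt1 KO. The shares were 5.05, 9.19, 7.61 and 9.43% in Dnmt3a KO 1, 2, 13 and 14 and 13, 14.9, 15.3 and 35.6% in Dnmt3b KO 1, 2, 11 and 12. Before thinning, they were 13.4 to 33.3% in WT, 78.0, 64.3 and 38.90% in Dnmt1 KO, 22.4, 15.1, 30.4 and 35.3% in Dnmt3a KO and 26.2, 29.3, 45.8 and 72.6% in Dnmt3b KO. The thinned Dnmt1 KO and Dnmt3b KO shares were above all WT shares, and Dnmt3a KO 1 alone lay within the WT range. Dnmt3b KO 1 and 2 share most of their barcodes and are listed apart, so their shares are not independent.

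UMIs of at least 2 different genes of the 10 were found in 2.95, 3.32 and 2.53% of thinned Dnmt1 KO barcodes, in 0.922, 1.15, 1.07 and 6.68% of Dnmt3b KO barcodes, in 0.0788 to 0.393% of Dnmt3a KO barcodes and in 0 to 0.229% of WT barcodes. Free RNA in the droplets can add UMIs, so Erythroid-like cells of the library labelled Dnmt3b KO 11 were set against its other classes. The thinned depth was the same, over classes with at least 25 cells that reached it. Erythroid-like cells carry the mutation too, so they are not a background without transcription. The median cell of all classed cells, shallower ones included, held 25734 and 22990 UMIs before thinning. Ddx4 was seen in 0.536% of 746 Erythroid-like cells and in 3.58% of 6473 other cells. Mael was seen in 0 of 746, which at this depth allows a share of cells with a UMI of up to 0.402% and sets no limit on cells that express it, and in 1.13% of the others. Asz1 was at 0.268% against 1.75% and Mov10l1 at 0.402% against 2.05%. Gpat2 was at 2.55% against 3.66%, so the share of Erythroid-like cells was not alike from gene to gene. Such a limit covers counting error only.

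The other libraries of the Dnmt3b KO label did not all give that order. Ddx4 was seen in 0.373 and 0.830% of Erythroid-like cells of libraries 1 and 2, against 4.25 and 4.91% of other cells, while Gpat2 was at 2.73 and 1.19% against 2.21 and 2.64%. Their median cells held 11245 and 10509 UMIs in the Erythroid-like class and 12881 and 13249 in the others. Library 12 had 71 Erythroid-like cells at this depth, with a median of 14373 UMIs against 29913. Asz1 was seen in 12.7% of them and in 13.8% of its other cells, Gpat2 in 7.04 and 7.81%, and Ddx4 in 0 of 71 and 8.03%. The Asz1 and Gpat2 shares of library 12 were thus near those of its Erythroid-like cells. The Gpat2 share of library 1 was so too, but not that of library 2, which shares most of its barcodes. In WT 1, Gpat2 was seen in 0.386% of Erythroid-like and 0.103% of other cells. These shares cannot tell free RNA from transcription in the Erythroid-like cells themselves. Each Dnmt1 KO library held fewer than 25 Erythroid-like cells at this depth, which were not used, so their shares have no such comparison beside them.

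**Figure D4:**
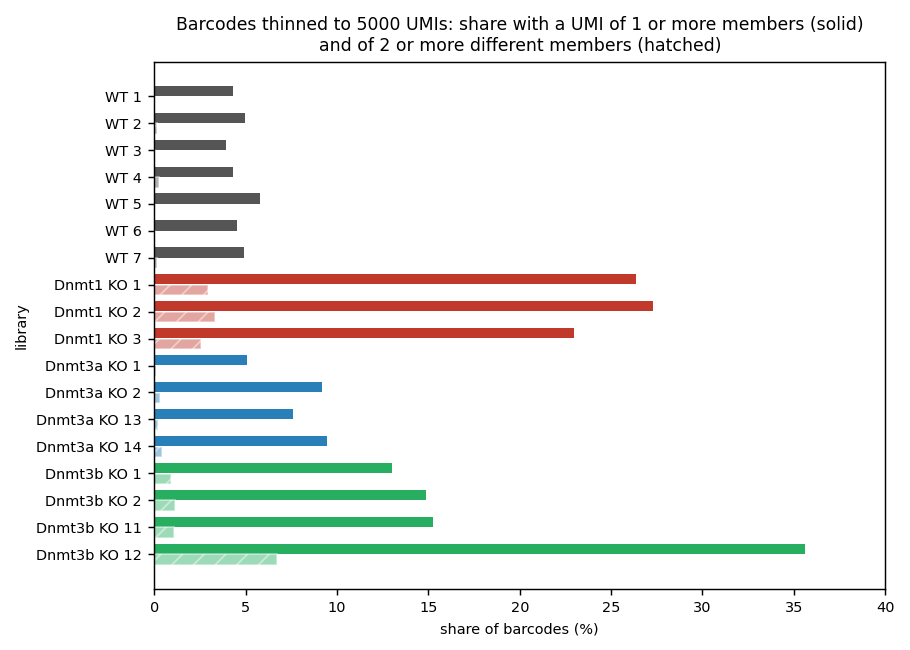
Share of barcodes, in percent, with a UMI of at least 1 of the 10 genes (solid bars) and of at least 2 different ones (hatched bars) in each library after thinning to 5000 UMIs. The WT bars stand between 3.92 and 5.77%, the Dnmt1 KO bars between 23.0 and 27.3%, and the library labelled Dnmt3b KO 12 at 35.6%.

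Embryos of this age hold a few primordial germ cells, and those express several of these genes. Barcodes with UMIs of both Dppa3 and Nanos3, a pair of germ cell genes, numbered 38 in all and 0 to 8 per library, and they held at most 0.574% of the UMIs of the 10 genes in any library. Leaving them out changed none of the counts of calls among the 10 genes, in whole-embryo sums or in classes. Germ cells without UMIs of both genes were not among these barcodes, so neither result bounds the part of germ cells in the sums. Of 7 germ cell markers, Dnd1 and Tfap2c rose in Dnmt1 KO (3.01 and 3.07), where 14.3% of all tested genes were called, and Dnd1 in Dnmt3b KO (1.89), where 1.86% were. Tfap2c is also a gene of the trophoblast, and it was at 11.5, 71.1 and 14.3 CPM in Dnmt1 KO 1, 2 and 3, whose ExE ectoderm-like shares were 5.60, 31.0 and 4.47%. The part of those cells in the marker sum was not tested. In Dnmt3a KO, 0 of the 7 passed with edgeR or DESeq2, and 1 had an unadjusted p under 0.05 with edgeR. Summed over the 7, the markers were at 16.0 to 32.1 CPM in WT, 35.1, 93.5 and 48.0 in Dnmt1 KO, 18.7 to 26.4 in Dnmt3a KO and 27.3, 22.7 and 18.7 in Dnmt3b KO. Nanos3 itself had means of 0.112 CPM in Dnmt1 KO, 0.113 in WT, 0.132 in Dnmt3a KO and 0.260 in Dnmt3b KO, and Prdm14, another early germ cell gene, was at 0 in at least 1 WT and 1 Dnmt1 KO library.

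Other genes of the piRNA pathway moved in the same mutants. Of 20, 19 could be tested, and 12 rose in Dnmt1 KO, 8 in Dnmt3b KO and 2 in Dnmt3a KO, with medians of 1.34, 0.86 and 0.36 over the 19, beside 14.3%, 1.86% and 0.207% of all tested genes called. No gene of this list fell and passed. The filter on low counts can keep a gene for its counts in mutant embryos alone, so these counts describe the list and support nothing. Gtsf1, whose protein is a cofactor of PIWI proteins, had the highest fold change in Dnmt1 KO, at 6.58, 10.3 and 9.27 CPM against 0.0169 to 0.0451 in WT, where libraries held 1 to 9 UMIs. In Dnmt3b KO its levels of 0.210, 0.579 and 5.9995 CPM were uneven in the same way as those of Asz1. Stk31, a Tudor-domain protein of the male germ line, rose in all 3 mutants and in Dnmt3a KO was at 2.81, 3.42, 3.73 and 4.37 CPM against 0.258 to 0.608 in WT (3.03 ± 0.28, adjusted p = 5.48e-05). Tex15, which acts in piRNA-directed DNA methylation, was the other gene called in Dnmt3a KO (1.11 ± 0.18, adjusted p = 0.00710). Fkbp6, a co-chaperone of PIWI proteins, rose by 4.54 in Dnmt1 KO and 3.24 in Dnmt3b KO, and Dnmt3l, the inactive cofactor of the de novo methyltransferases in germ cells, by 5.75 in Dnmt1 KO. Dnmt3l is also a gene of the trophoblast, and it was at 9.66, 38.6 and 9.92 CPM in Dnmt1 KO 1, 2 and 3, whose ExE ectoderm-like shares were 5.60, 31.0 and 4.47%. The part of those cells in its rise was not tested. Without Dnmt3b KO 12, 12 of the 19 rose in Dnmt1 KO (14.8% of all tested genes called), 6 in Dnmt3b KO (1%) and 4 in Dnmt3a KO (0.454%).

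**Figure D5:**
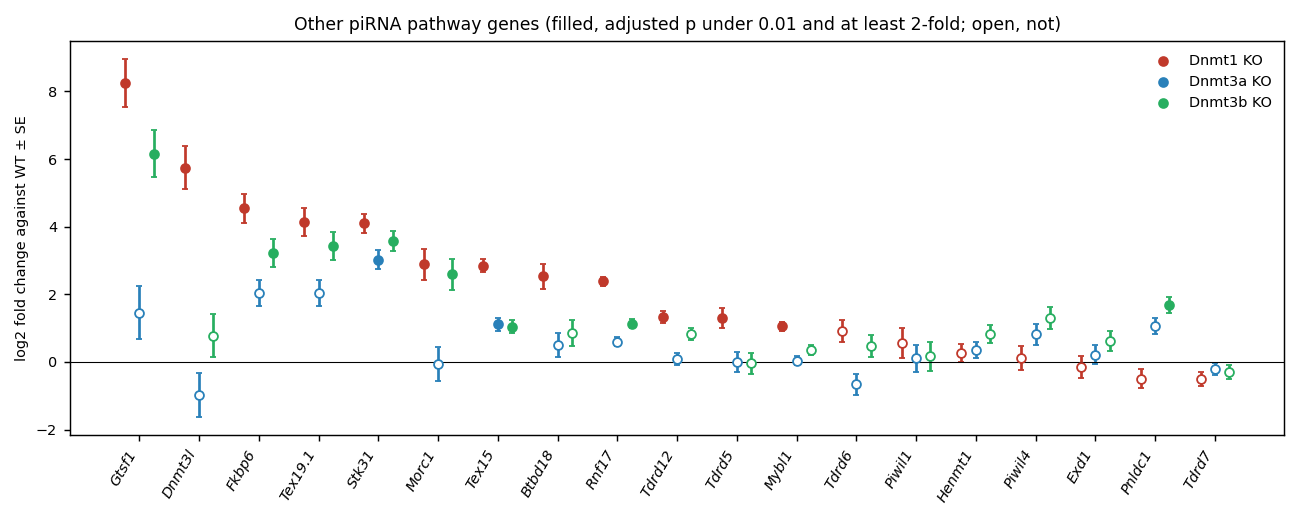
Log2 fold change over WT of 19 other genes of the piRNA pathway in the 3 mutants (Dnmt1 KO, Dnmt3a KO, Dnmt3b KO), with bars of 1 SE and filled points for genes that passed the test. Gtsf1 is at 8.26 in Dnmt1 KO and 6.16 in Dnmt3b KO, and Stk31 at 3.03 is the highest in Dnmt3a KO.

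A list of 12 somatic relatives of the 10 genes held, among others, Mov10 (the relative of Mov10l1), the Argonautes Ago1 to Ago4, Ddx3x and the acyltransferases Gpam, Gpat3 and Gpat4. None of the 12 passed in any of the 3 comparisons with edgeR or with DESeq2, and 6, 1 and 3 had an unadjusted p under 0.05 in Dnmt1 KO, Dnmt3a KO and Dnmt3b KO with edgeR. The shares of all tested genes called were 14.3%, 0.207% and 1.86%. A count of 0 among 12 genes therefore says little in any of the 3 comparisons, and the difference from the 10 genes was not tested. The medians were 0.23, -0.07 and -0.12. In Dnmt1 KO, Mov10 was at 0.82 ± 0.19 (adjusted p = 0.00307), Ago4 at 0.92 ± 0.24 (adjusted p = 0.00579) and Akap1 at 0.51 ± 0.12 (adjusted p = 0.00347), all under the fold threshold.

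The genes whose profile over the 17 samples was nearest to the mean profile of the 10 were Rbm44, Spaca1 and Brdt, by the root mean square difference (0.148, 0.245 and 0.260) of log2(CPM + 1) values taken relative to the WT mean, among 12603 genes with a mean of at least 1 CPM. This is a description over samples that share their groups and libraries. The mean of at least 1 CPM was taken over all samples, so a gene low in WT can enter through the mutant samples. RBM44 is an RNA-binding protein of germ cells, SPACA1 a protein of the sperm acrosome and BRDT the testis bromodomain protein. Rbm44 was at 0.327 to 0.630 CPM in WT, 4.21, 3.30 and 3.48 in Dnmt1 KO, 0.616 to 1.58 in Dnmt3a KO and 2.08, 1.71 and 3.76 in Dnmt3b KO. The same 3 genes came first with a pseudocount of 0.5.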

How the data were processed

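Whole E8.5 embryos were profiled by 10x Genomics 3' v3 single-cell RNA-seq, with each of the 18 libraries labelled as 1 embryo. The authors deposited filtered matrices of UMI counts per gene and barcode, made with Cell Ranger and not normalised. Per the headers of the matrices, Cell Ranger 3.1.0 was used for 17 libraries and 5.0.0 for 1 (Dnmt3b KO 12), while the study's methods name 5.0.0. A combined human and mouse reference was used for 4, of which mouse genes were kept. No column of another sample was present. Barcodes with at least 1500 mouse UMIs were kept, and raw UMIs were summed per library and, for embryos with at least 25 cells, per class. Classes came from 44 clusters (scanpy 1.11.5) named from marker lists, with 7 clusters unnamed. Classes leave out called doublets and barcodes beyond the study's filters of 30% mitochondrial and 35% ribosomal reads, and whole-embryo sums do so only in an alternative.

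Sums were tested with edgeR 4.0.16 (quasi-likelihood, TMM, filterByExpr, all 4 groups in one fit, adjusted p under 0.01 and an absolute log2 fold change of at least 1, the study's thresholds) after a check on simulated counts. The SE of an edgeR fold change is an approximation: its absolute value over the square root of the test's F statistic. In class fits each compared group needed at least 3 embryos. The replicates are single embryos. Library sizes limit the precision, since 3 UMIs in a library stand for 0.00955 to 0.0774 CPM. The 10 genes and all lists were chosen with earlier results of these data known, so no pattern counts as independent support. Genes were named by membership of the 10 genes or of a list, and the 3 nearest profiles were taken. Alternatives were DESeq2 1.42.0, other scaling, no filter, other barcodes and covariates, thinning, a replicate block and leaving out each library.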

Additional observations from a re-analysis of the deposited data

Results flagged for a closer look

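In each group of 4 to 10 samples, each of the 10 genes was checked for a library far from the others by Dixon's ratio, which is the gap to the nearest library over the range of the group. Of 20 such groups, 3 passed the 95% critical value, where chance flags about 1 in 20. Mael was at 0.129 CPM in WT 2, with the nearest WT library at 0.0537 (ratio 0.628). WT 2 was also the only WT library with high Y-linked transcripts, and the only one with more than 1 ExE ectoderm-like cell (119 cells, 1.65%), which held 1 UMI of Mael. What part these play was not tested. Mov10l1 was at 0.597 CPM in WT 1, with the nearest at 0.387 (ratio 0.761). Tdrd9 was at 0.181 CPM in WT 5, the library with the fewest UMIs, with the nearest at 0.130 (ratio 0.599). The 3 samples of Dnmt1 KO and of Dnmt3b KO were too few for this check.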

How the results depend on the processing

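Of the 10 genes, 6 were called in Dnmt1 KO over WT under every alternative and with each library left out in turn (6 to 6), the replicate block included. The single Dnmt3a KO call was the least stable: it became 5 with DESeq2, 2 with no low-count filter, 2 with a reference covariate, 2 without extraembryonic classes, 2 thinned to the smallest sample and 0 with a Y-linked covariate, and leaving out 1 library gave 0 to 5. It gained Mael, Piwil2 and Gpat2 without WT 2 and Mael without Dnmt3a KO 1. In Dnmt3a KO, 0.35% of all tested genes were called with the Y-linked covariate and 0.332% without extraembryonic classes. No share of all genes stands beside the other counts of calls among the 10 genes here. A change in those is not read as a result about these genes. Leaving out 1 library gave 6 to 7 in Dnmt3b KO over WT, 5 to 6 in Dnmt1 KO against Dnmt3a KO, 0 to 3 in Dnmt1 KO against Dnmt3b KO (0 also without extraembryonic classes) and 1 to 4 in Dnmt3b KO against Dnmt3a KO, where the Y-linked covariate gave 1 and the reference covariate 2. The calls of gene and class pairs became 14 in Dnmt1 KO, 24 in Dnmt3b KO and 1 in Dnmt3a KO when thinned, which also left fewer pairs to test, 13 in Dnmt1 KO with at least 50 cells per embryo, which left 2 classes, and 17 in Dnmt3a KO with DESeq2 and 12 with no low-count filter. Over all genes the Dnmt3a KO pair calls rose too, from 244 of 168179 to 530 of 168179 with DESeq2 and 567 of 293352 with no low-count filter. Thinned, they were 2213 of 46546 in Dnmt1 KO, 430 of 124210 in Dnmt3b KO and 61 of 124210 in Dnmt3a KO. With at least 50 cells they were 1885 of 27226 in Dnmt1 KO. Leaving out 1 library gave 21 to 28, 2 to 11 and 56 to 59 pairs of the 10 genes. The cause of the other changes was not tested.

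Replicate numbers are shared between groups, and whether they pair the embryos is not given in the sources used here. Deviations of same-numbered libraries correlated between -0.39 and 0.41. Differently numbered libraries were not compared, so these values do not decide it. The replicate block needed libraries 1 and 2 of the Dnmt3b KO label as separate samples, although they share most barcodes. With it the member calls were 0 in Dnmt3a KO, 0 in Dnmt3b KO, 2 in Dnmt1 KO against Dnmt3b KO, 3 in Dnmt1 KO against Dnmt3a KO and 0 in Dnmt3b KO against Dnmt3a KO, and the pair calls 0 in Dnmt3a KO and 3 in Dnmt3b KO. Over all genes the block called 13 of 157248 pairs in Dnmt3a KO and 76 of 157248 in Dnmt3b KO. No share of all genes stands beside the member calls. By construction the block fit takes no information from a library whose number no other group has, such as 11 to 14. Changes of sign were seen among genes that did not pass: Tdrd1 at -0.68 (Y-linked covariate) and -0.42 (without extraembryonic classes) in Dnmt1 KO and -0.43 (Y-linked covariate) in Dnmt3a KO, Tdrd9 in Dnmt3a KO at 0.37 (Y-linked covariate), 0.017 (reference covariate) and -0.16 to 0.074 (1 library left out), Pld6 in Dnmt3b KO at -0.015 to 0.12 (1 library left out) and Tdrkh in Dnmt3b KO at -0.038 (replicate block). Apart from the replicate block and libraries left out, 97 of 99 fold changes of the 10 genes kept direction and call in Dnmt1 KO, 99 of 99 in Dnmt3b KO and 85 of 99 in Dnmt3a KO, where 9 gained and 2 lost a call and 3 changed sign. With the block 10, 3 and 9 of 10 did in that order, and 6 calls were lost in Dnmt3b KO and 1 in Dnmt3a KO. Mael and Tdrd9 had the lowest WT means of the 10 genes, at 0.0508 and 0.121 CPM, so their fold changes rest on few UMIs in WT.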

Other observations

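The library labelled Dnmt3b KO 12 had levels of Asz1 near those of Dnmt1 KO in several classes, while other genes of the pathway were mixed. In Gut-like cells Asz1 was at 32.0 CPM there and at 26.9, 29.8 and 27.9 in the 3 Dnmt1 KO libraries, in Megakaryocyte-like cells at 31.4 against 30.4, 24.6 and 27.04, and in Endothelium-like cells at 26.5 against 24.9, 18.2 and 25.4. In ExE mesoderm and allantois-like cells it was higher, at 54.5 against 40.5, 37.8 and 39.2. Epiblast-like cells were the lowest class of Asz1 in both, at 16.3 in that library and 12.3, 11.7 and 12.2 in Dnmt1 KO. The same library had 96.6 CPM of Tex19.1, which the Dnmt1 KO libraries held at 61.4, 94.5 and 47.3, against 15.7 and 24.5 in the other samples labelled Dnmt3b KO. The Gut-like class was led by cluster 33 in Dnmt1 KO (81.9%) and 25 in Dnmt3b KO (41.3%), and the ExE mesoderm and allantois-like class by 20 (83.2%) and 14 (31.7%). In whole-library sums Ddx4 at 15.4 CPM and Piwil2 at 3.30 lay within the Dnmt1 KO ranges of 10.7 to 17.7 and 3.18 to 5.19, Gtsf1 at 5.9995 lay just below its lowest Dnmt1 KO library at 6.58, and Stk31 at 9.04 above its highest at 8.21. Dnmt3l was at 0.877 CPM in that library against 9.66, 38.6 and 9.92 in Dnmt1 KO. Tex15 was at 11.6 against 24.997, 35.6 and 26.9, and Rnf17 at 14.2 against 27.3, 30.8 and 27.6. Mael and Gpat2 were instead above every Dnmt1 KO library, at 3.50 and 14.8 against at most 1.04 and 8.43. So were Asz1 at 30.5 against 21.9, Mov10l1 at 9.96 against 5.97 and Tdrkh at 11.7 against 5.48. Pld6 at 1.55 against 1.18 and Tdrd9 at 0.242 against 0.215 were above too. Tdrd1 at 0.360 was below its lowest Dnmt1 KO library, at 0.453. The Dnmt1 level of the library labelled Dnmt3b KO 12 was 112 CPM, within the WT range. Its Dnmt3a level of 7.65 CPM lay within the Dnmt3a KO range of 7.59 to 11.8. Its Dnmt3b genotype could not be checked on these transcripts. It is a single library, and its Cell Ranger version, Y-linked level and class make-up (8.30% Megakaryocyte-like cells, for example) also differ from the others of its label, so these features cannot be told apart.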
